A study of Mus musculus with 12 samples.

Results

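Rnf32, Lmbr1 and Nom1 lie beyond the gene desert upstream of Shh, and their H3K27me3 was read on a custom Agilent tiling array in mouse cells. The region was taken by position alone, as every probe outside control spots within chr5:29520001-29785000 (mm9), the tiles of 5 kb from the start of Rnf32 to the end of Nom1. It holds 2172 of the 48316 probes of the array and 2172 of the 12390 probes of the tiled stretch around Shh. Probes are 60 bases long with a median step of 60 bp, and the widest gap is 7307 bp. Each of 6 conditions had 2 arrays, R1 and R2. All cells were of 46c, a single mouse embryonic stem cell (ESC) line with GFP knocked into Sox1, so that no condition holds a second genotype. The ESCs were transfected by lipofection with eGFP as the control or with 1 of 4 TALE-Vp64 activators, proteins that carry the viral activation domain Vp64 to a chosen site: tShh-Vp64 to the Shh promoter, tSBE6-Vp64 and tSBE2-Vp64 to the Shh enhancers SBE6 and SBE2, and tSBE(6+2)-Vp64 to both enhancers. The sixth condition was neural progenitor cells (NPCs) differentiated from the same line in N2B27 medium, and the labels do not give their day of differentiation. None of the activators was aimed at Rnf32, Lmbr1 or Nom1. The comparisons ask how H3K27me3 over these genes differs between NPCs and ESCs, and between activated and control ESCs.

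H3K27me3 is the trimethyl mark that polycomb repressive complex 2 places on histone H3. It typically covers CpG-rich promoters of developmental genes that are held silent, and it is typically low over genes that are transcribed. Rnf32 encodes a RING finger protein. Lmbr1 encodes a multipass membrane protein and is best known because an intron of it houses ZRS, the limb enhancer of Shh, which was not analysed here. Nom1 encodes a nucleolar protein with an MIF4G domain. The region is bounded on its far side by Mnx1, a homeobox gene of motor neurons and a typical polycomb target.

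In mm9, with GENCODE annotation of the same build, Rnf32 (ENSMUSG00000029130.6) lies at chr5:29522532-29552064 on the plus strand, and its start is 728.891 kb from that of Shh. Lmbr1 (ENSMUSG00000010721.8) follows at chr5:29556354-29704930 on the minus strand, so that the ends of the 2 genes face each other across 4289 bp. A long intergenic RNA, 4632411P08Rik, starts 309 bp from the Lmbr1 start site on the plus strand and points the other way. Nom1 (ENSMUSG00000001569.9) lies at chr5:29761204-29780046 on the plus strand, 56.274 kb from the Lmbr1 start site. Of the probes, 341 lie in Rnf32, 1107 in Lmbr1, 402 between Lmbr1 and Nom1 and 200 in Nom1.

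The 300 bases before each annotated start site are shown because CpG content is a usual feature of polycomb targets, and 2 further stretches of 300 bases because each sits at the centre of the 1 kb bin with the highest NPC value of its place among bins of at least 5 probes, one in the first intron of Lmbr1 (chr5:29701280-29701579) and one in the 10 kb before Nom1, between Lmbr1 and Nom1 (chr5:29754554-29754853). They were read from mm9, the first 3 on the strand of the gene (chr5:29522232-29522531 plus, chr5:29704931-29705230 minus and chr5:29760904-29761203 plus) and the other 2 on the plus strand; capitals mark CG dinucleotides, counted on both strands at once.
Rnf32 upstream: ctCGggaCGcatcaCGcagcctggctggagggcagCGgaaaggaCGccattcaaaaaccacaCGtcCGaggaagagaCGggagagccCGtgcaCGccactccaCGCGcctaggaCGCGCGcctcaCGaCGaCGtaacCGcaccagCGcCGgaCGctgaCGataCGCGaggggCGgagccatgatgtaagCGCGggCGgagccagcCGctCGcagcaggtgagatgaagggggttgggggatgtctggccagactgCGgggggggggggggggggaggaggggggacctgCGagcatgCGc
Lmbr1 upstream: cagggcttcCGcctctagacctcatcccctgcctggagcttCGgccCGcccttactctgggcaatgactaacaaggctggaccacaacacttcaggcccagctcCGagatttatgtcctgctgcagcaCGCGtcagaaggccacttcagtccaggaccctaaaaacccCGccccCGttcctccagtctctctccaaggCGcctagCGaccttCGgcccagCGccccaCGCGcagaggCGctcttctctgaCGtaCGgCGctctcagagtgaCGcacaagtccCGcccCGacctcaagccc
Nom1 upstream: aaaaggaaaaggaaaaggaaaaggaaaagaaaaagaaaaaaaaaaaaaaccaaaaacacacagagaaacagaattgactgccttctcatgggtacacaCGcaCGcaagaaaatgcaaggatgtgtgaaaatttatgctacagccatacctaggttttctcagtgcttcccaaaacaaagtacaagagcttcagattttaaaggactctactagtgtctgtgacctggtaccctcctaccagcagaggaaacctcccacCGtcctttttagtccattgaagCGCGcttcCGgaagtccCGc
Lmbr1 intron: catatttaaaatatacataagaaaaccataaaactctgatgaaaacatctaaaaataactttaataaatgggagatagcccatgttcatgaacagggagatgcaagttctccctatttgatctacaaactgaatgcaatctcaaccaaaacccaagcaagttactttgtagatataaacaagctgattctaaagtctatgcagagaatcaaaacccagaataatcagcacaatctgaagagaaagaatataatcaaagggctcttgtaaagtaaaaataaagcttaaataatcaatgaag
Lmbr1 to Nom1: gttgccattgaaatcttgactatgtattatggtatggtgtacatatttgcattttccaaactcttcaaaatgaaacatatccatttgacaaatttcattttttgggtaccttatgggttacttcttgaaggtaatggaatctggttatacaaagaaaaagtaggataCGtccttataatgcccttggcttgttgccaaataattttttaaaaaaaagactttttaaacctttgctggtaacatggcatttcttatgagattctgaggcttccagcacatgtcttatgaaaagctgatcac

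Rnf32 had 34 CG dinucleotides in these 300 bases, Lmbr1 21 and Nom1 7. Over 22374 upstream windows of protein-coding genes the median was 9, and 6.5% held at least as many as Rnf32, 23.7% as many as Lmbr1 and 58.6% as many as Nom1. The Lmbr1 intron stretch held 0 and the stretch between Lmbr1 and Nom1 held 1, with a GC content of 31% and 33.3%. The median over 883 windows of the region was 1, and 77.2% held at least 1. Neither stretch overlaps an annotated exon. The 2 stretches thus had no more CG than is usual in the region. The 5 kb tiles that hold the start sites had 22.6 CG per kb for Rnf32, 17.8 for Lmbr1 and 23.2 for Nom1. This order was another one than by upstream bases, but the tiles are not centred on the start sites. The Lmbr1 tile ends just past its start site, so most of the 300 upstream bases lie in the next tile. That tile had 12.6 CG per kb. By the 300 upstream bases the start site of Rnf32 was the most CpG-rich of the 3. Its promoter window of 5 kb to each side had the smallest NPC difference, as described below, but this order turned with the window. With 2.5 kb to each side the difference was 0.42 at Rnf32 and 0.29 at Nom1. In the first kb of the gene it was 0.52 at Rnf32 and 0.030 at Nom1. The contrast was not tested.

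Values are log2 ratios of Cy5 over Cy3, centred on the median of each array. By the labels Cy3 marks the ChIP DNA and Cy5 the input, but the authors' deposited ChIP over input ratios correlated with log2 Cy5 over Cy3 at 0.901 to 0.946 across all probes. The direction of the deposited table was therefore used, with a positive value as more H3K27me3, and it is called likely only: if the dye labels hold, every sign and every "higher" below is turned. The cell type labels were set against the marker loci on the array. The promoter windows of Pou5f1 and Fgf4, genes of ESCs, had ESC means of -0.55 and -0.22 and NPC values of 1.43 and 2.40, whereas Nes and Sox9, genes of NPCs, went from 0.73 to -0.085 and from 1.33 to 0.77. The windows of Six3 and Shh went the other way from Nes and Sox9, from 1.73 to 3.28 and from 1.12 to 2.20. The paper reports Six3 as upregulated on differentiation to NPCs and Shh as expressed in them. Loci of genes active in NPCs were thus mixed. No expression was measured.

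NPC and tSBE(6+2)-Vp64 arrays were on slide 2 and the other 4 conditions on slide 1. In the region 51.7% to 78.9% of probes were well above background in Cy3 on slide 2 and 75.7% to 93.6% on slide 1. In Cy5 the NPC arrays had 63.49% and 70.3%, the tSBE(6+2)-Vp64 arrays 69.06% and 74.95%, and slide 1 arrays 75.55% to 82.37%. R1 and R2 correlated at 0.638 to 0.721 over the region's probes. Both conditions of slide 2 also had a wider range of ratios: the slope of the region's tiles on the mean of the ESC populations was 1.30 for NPCs and 1.28 for tSBE(6+2)-Vp64 ESCs, against 0.88 to 1.00 for the others. Slide is addressed below by values within slide 2 and by a fit with slide as a term. With only these 2 conditions on slide 2, both give the same difference, NPCs minus tSBE(6+2)-Vp64 ESCs, and are not separate checks. R1 and R2 were averaged to 1 sample, because the authors combined them and the labels give those of 3 conditions the same biological replicate. P-values of NPCs against ESCs measure the spread between the 5 ESC populations, and the single NPC sample is assumed to vary like them. Those of TALE-Vp64 against eGFP ESCs measure the spread between the 4 TALE-Vp64 populations, with the same assumption for the single eGFP sample. These 4 have different targets and include the tSBE(6+2)-Vp64 ESCs of slide 2.

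Across the region all 6 conditions drew the same outline: low ratios over the 3 genes and positive ratios between Lmbr1 and Nom1. In eGFP ESCs the mean was -0.44 over Rnf32, -0.71 over Lmbr1, 0.23 between Lmbr1 and Nom1 and -0.78 over Nom1. Over the 5 ESC populations Rnf32 lay between -0.68 and -0.39, Lmbr1 between -0.87 and -0.62, the stretch between Lmbr1 and Nom1 between 0.12 and 0.27, and Nom1 between -0.99 and -0.53. In NPCs the means were -0.48, -0.55, 0.69 and -0.56. Thus the NPC value stood outside the ESC range over Lmbr1 and between Lmbr1 and Nom1, and inside it over Rnf32 and Nom1. The mean of the whole region was -0.31 in NPCs and -0.53 ± 0.084 (SD, n = 5) in ESC populations. An exact two-sided permutation test of 1 sample against 5 gave p = 0.167, which is the smallest p it allows. Over the 6502 probes of the desert between Shh and Rnf32 the ESC mean was -0.049 and the NPC value -0.10.

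**Figure D1:**
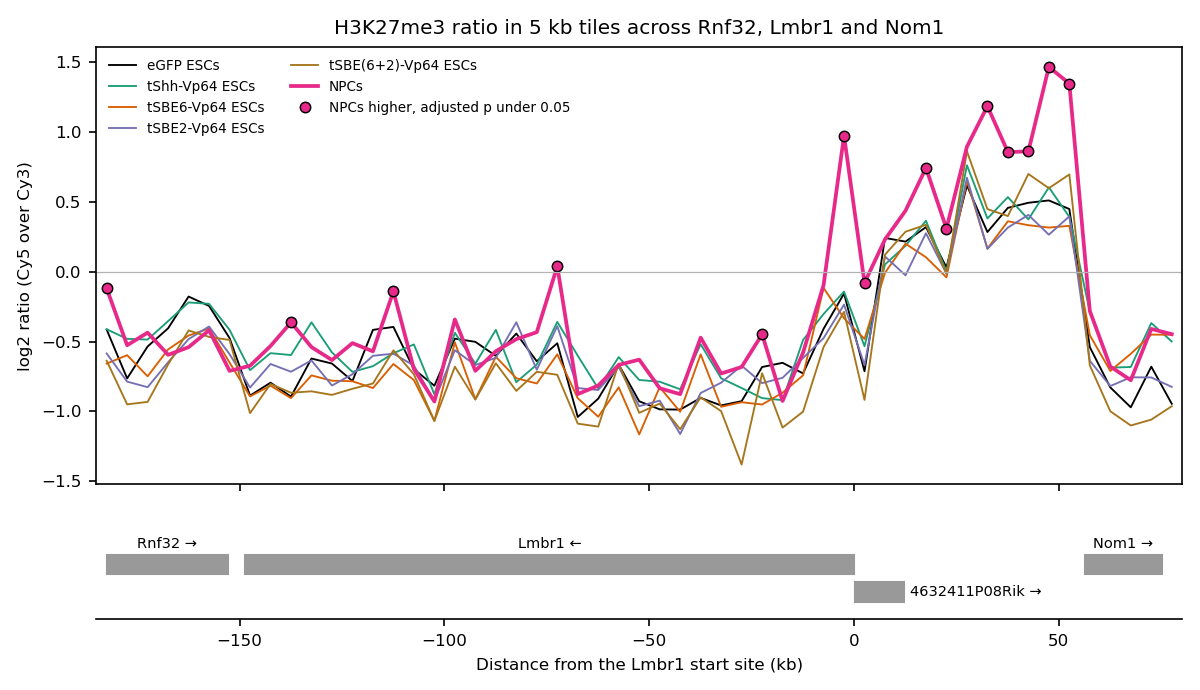
H3K27me3 log2 ratio (Cy5 over Cy3, y axis) in 53 tiles of 5 kb against distance from the Lmbr1 start site in kb, with lines for the mean of R1 and R2 in each condition, circles for tiles higher in NPCs, and gene boxes with arrows for strand below. NPCs peak in the first 5 kb of Lmbr1 and between Lmbr1 and Nom1, and over the rest of the genes every tile is below 0 but for 1 NPC tile in Lmbr1 at 0.038.

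Of the 53 tiles of 5 kb, 14 were higher in NPCs than in the ESC populations and 0 were lower (limma, adjusted p under 0.05 over 963 tiles). Over the whole array 26.9% of tiles were higher and 11.5% lower, so the share of higher tiles in the region was near that of the array. At an unadjusted p under 0.05 limma had 17 higher and 0 lower tiles of the 53, where the array had 286 higher and 153 lower of 963. NPCs were above all 5 ESC populations in 30 tiles and below all of them in 2, where the array had 40.9% and 30.8% of its tiles. The median difference was 0.19 in the region and 0.052 over all tiles, with a range of -0.19 to 1.20. With the deposited ratios, which are not centred and move the median of all tiles to -0.10, 7 tiles were higher and 3 lower, and with the same ratios centred the counts were 11 and 0. In NPCs minus tSBE(6+2)-Vp64 ESCs, both on slide 2, all 14 tiles were positive, but this shares samples with the comparison, and all 370 called tiles of the array kept their sign in it too. With slide as a term in the fit 8 of the 14 passed, and with only probes well above background and not saturated 4 of the 12 that could be measured passed and 11 kept their sign.

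The called tiles were unevenly placed. Between Lmbr1 and Nom1 8 of 11 tiles were higher, in Lmbr1 5 of 30, in the tile around the start of Rnf32 1 of 1, and in the other tiles of Rnf32 0 of 5 and of Nom1 0 of 4. In the 135 tiles of the desert from Shh to the region 12 were higher and 16 lower, with a median difference of -0.14. The difference between these places was not tested. Apart from its 5' end, the 4 called tiles of Lmbr1 had differences of 0.36 to 0.56 and only 8 to 22 probes each, and the tile at the start of Rnf32 had 0.42 (SE 0.13, adjusted p = 0.0294) with 69 probes.

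The tile chr5:29700001-29705000, which holds the first exon and the start of the first intron of Lmbr1, had the greatest difference in the region. It stood at -0.16 in eGFP ESCs, and those with tShh-Vp64 had -0.14, with tSBE6-Vp64 -0.33, with tSBE2-Vp64 -0.24 and with tSBE(6+2)-Vp64 -0.29, while the 2 NPC arrays read 0.94 and 1.01. Both NPC arrays were thus more than 1 above every ESC population, and the difference was 1.20 (SE 0.12, limma adjusted p = 1.7e-05). Within slide 2 it was 1.26. Over the alternatives run it was 0.65 to 1.26 and passed in 17 of 17.

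The next tile, chr5:29705001-29710000, holds the start and first exon of 4632411P08Rik. Its ESC values were -0.71, -0.53, -0.48, -0.67 and -0.92, in the same order of conditions, and its NPC arrays read -0.23 and 0.069. NPCs stood above all ESC populations, although the arrays themselves differed by 0.30. The difference was 0.58 (SE 0.16, adjusted p = 0.0147), and with array R1 alone it was 0.45 with an adjusted p of 0.0851.

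Between Lmbr1 and Nom1 the 3 tiles with the greatest differences were chr5:29750001-29755000, chr5:29735001-29740000 and chr5:29755001-29760000. The first had ESC values of 0.51, 0.60, 0.32, 0.26 and 0.60 and NPC arrays of 1.45 and 1.48, a difference of 1.01 (SE 0.15, adjusted p = 0.000363). The second, with 14 probes, had ESC values of 0.28, 0.38, 0.17, 0.16 and 0.45 and NPC arrays of 1.32 and 1.05. Its difference was 0.90 (SE 0.14, adjusted p = 0.000397). In all 3 tiles the ESC populations were already above 0 and the NPC arrays lay above each of them. The third had ESC values of 0.45, 0.39, 0.33, 0.40 and 0.70 and NPC arrays of 1.41 and 1.28, with a difference of 0.89 (SE 0.14, adjusted p = 0.000573). Within slide 2 the 3 differences were 0.87, 0.74 and 0.65, smaller than against all ESC populations.

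This block ended at Nom1. In the tile chr5:29760001-29765000, which starts just before the Nom1 start site, the NPC value was -0.28 and those of the ESC populations -0.67 to -0.29, and the tile was not called. Over the 4 tiles of Nom1 the NPC differences were 0.043 to 0.25. Beyond the region, past the end of Nom1, the ratio climbed again towards Mnx1. The tile chr5:29785001-29790000 read 0.31 in NPCs and 0.084 in the ESC mean, and chr5:29795001-29800000 reached 3.71 and 1.79. Over Mnx1 and 5 kb to each side the NPC value was 3.15 and the ESC populations lay between 1.44 and 1.86. On the other side, the tile just before the region, chr5:29515001-29520000, read -0.24 in NPCs and in the ESC mean. Nom1 thus lay between a stretch with positive ratios on its upstream side and one on its downstream side, and read below 0 in every condition.

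In finer tiles of 2 kb, 8 of 122 in the region (6.56%) had a log2 ratio of at least 1 on both NPC arrays, where 17.8% of the 2289 tiles of the array did. In each of the 5 ESC populations 0 of 122 did, where the array had 8.78% to 11.9%. With the sign turned, as the dye labels would have it, the tiles at the other end count instead. NPCs had 2 tiles at or below -1 on both arrays (1.64%), where the array had 1.22%. The tSBE(6+2)-Vp64 ESCs, on slide 2, had 20 (16.4%, array 5.85%). The other ESC populations had 1 to 7 each (0.82% to 5.74%, array 1.75% to 3.49%). In NPCs 27 tiles were at or above 0 on both arrays, and in each ESC population 17 to 21, a count for which no share over the array was taken. The ratios of NPCs spread more widely over these tiles, with an SD of 0.67 against 0.43 to 0.57 in the ESC populations, and the part of this in the counts was not tested. R1 and R2 differed per tile by a median of 0.084 to 0.15.

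The promoter window of each gene, 5 kb to each side of the start site, was tested over 76 protein-coding genes of the array. Lmbr1 and Nom1 were higher in NPCs and Rnf32 did not pass, so 2 of 3 were called where 53.9% of all 76 windows were higher and 7.89% lower. The share in the region was therefore near that of the array.

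The Lmbr1 window, with 93 probes, read -0.40 for eGFP, -0.32 for tShh-Vp64, -0.40 for tSBE6-Vp64, -0.42 for tSBE2-Vp64 and -0.57 for tSBE(6+2)-Vp64, while the NPC arrays read 0.39 and 0.56. The ESC populations were all below 0 and both NPC arrays above it. The difference was 0.90 (SE 0.16, limma adjusted p = 2.17e-05), 1.05 within slide 2, and it passed in all 20 alternatives with a test, at 0.49 or more.

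The Nom1 window (106 probes) also covers the end of the stretch between Lmbr1 and Nom1. In 1 kb bins the NPC difference was 0.58 to 0.97 from 5 to 1 kb before the start. It was 0.19 in the kb before the start and 0.030 in the first kb of the gene. From 1 to 5 kb into the gene it was 0.15 to 0.46. The window read -0.37, -0.22, -0.32, -0.44 and -0.44 in the ESC populations in the same order, and 0.12 and -0.035 on the NPC arrays. NPC arrays lay above every ESC population but on both sides of 0, and the difference was 0.40 (SE 0.16, adjusted p = 0.0298). It did not pass without array R1 (0.31, adjusted p = 0.148) or without tSBE2-Vp64 ESCs (0.38, adjusted p = 0.0817), nor with the deposited ratios (0.13), with bright probes alone (0.19), with the median over probes (0.24) or with a window of 2.5 kb (0.29).

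Rnf32 (135 probes) read -0.42, -0.31, -0.57, -0.52 and -0.67 in the ESC populations and -0.23 and -0.18 on the NPC arrays. Its NPC value was above all 5 but close to tShh-Vp64 ESCs, and the difference of 0.29 (SE 0.17, adjusted p = 0.129) did not pass. With slide as a term it was 0.46 with an adjusted p of 0.0366.

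Over the gene bodies, from start to end without the promoter window, none of the 3 genes passed (limma over 42 genes; 40.5% of them were higher and 7.14% lower). The Rnf32 body had an ESC mean of -0.51 ± 0.12 (SD, n = 5) and an NPC value of -0.55. That of Lmbr1, the longest of the 3, had -0.77 ± 0.096 and -0.63, and that of Nom1 had -0.76 ± 0.18 and -0.66. The differences were -0.040 (SE 0.15, adjusted p = 0.867), 0.14 (SE 0.14, adjusted p = 0.459) and 0.097 (SE 0.16, adjusted p = 0.67). With slide as a term the Nom1 body passed (0.37, adjusted p = 0.0476), and with the deposited ratios that of Rnf32 (-0.19, adjusted p = 0.0245). Their signs are not settled, since that of Rnf32 turned with loess, with slide as a term and with NPC values divided by their slope, and those of Lmbr1 and Nom1 with the deposited ratios and with bright probes.

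**Figure D2:**
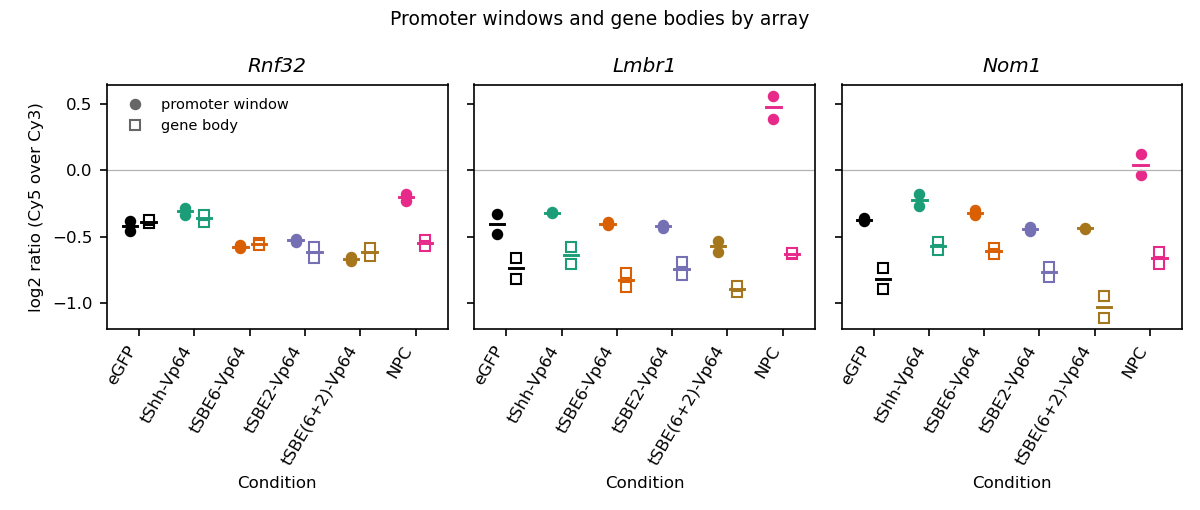
Log2 ratio (y axis) of the promoter window (filled circles) and the gene body (open squares) of Rnf32, Lmbr1 and Nom1 on each of the 2 arrays per condition (x axis), with a bar at the mean. The Lmbr1 window is at 0.39 and 0.56 in NPCs and below 0 on every ESC array, and the gene bodies stay below 0 in all conditions.

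Whether the NPC difference at the window differed from that over the gene body was tested as promoter minus body, over 37 genes. Of these genes 32.4% were higher and 13.5% lower. Promoter minus body compares places on the same array. For Lmbr1 it was 0.34 in the ESC mean, with a range of 0.32 to 0.43, and 1.10 in NPCs. The difference of 0.76 (SE 0.11, adjusted p = 0.000242) passed in all 20 alternatives with a test, at 0.49 to 0.84. For Rnf32 it was 0.0075 in the ESC mean and 0.34 in NPCs, a difference of 0.33 (SE 0.11, adjusted p = 0.032) that did not pass without array R2 (0.29, adjusted p = 0.0507) or without tSBE2-Vp64 ESCs (0.36, adjusted p = 0.0546), nor with slide as a term (0.40, adjusted p = 0.0586), with NPC values divided by their slope (0.27, adjusted p = 0.117) or with loess (0.27, adjusted p = 0.118). For Nom1 it was 0.40 in the ESC mean and 0.70 in NPCs, and the difference of 0.30 (SE 0.13, adjusted p = 0.0865) did not pass, although it did without array R2 (0.46, adjusted p = 0.0329) and without tSBE(6+2)-Vp64 ESCs (0.35, adjusted p = 0.0278). Without array R1 it was 0.15 (adjusted p = 0.495), and within slide 2 it was 0.11.

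In bins of 1 kb the 3 start sites had different shapes, which are described without a test. At Lmbr1 the NPC ratio rose inside the gene: 0.53 in the first kb, 1.23 and 1.18 in the next bins and 1.50 in the bin from 3 to 4 kb (7 probes), against ESC means of -0.20, -0.013, -0.18 and -0.55. It was back at 0.31 in the bin from 4 to 5 kb, which has 4 probes, and at -0.057 from 6 to 7 kb. On the side of 4632411P08Rik the NPC ratio dipped to -0.37 between 2 and 1 kb before the start, where the ESC mean was -0.91. From 5 to 4 kb before it the NPC ratio was 0.26 and the ESC mean -0.26. From 6 to 5 kb before it, in a bin with 4 probes, they were 0.70 and 0.27. The ESC populations there ran from -0.043 to 0.62. The intron stretch printed above lies in the bin with 1.50.

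At Rnf32 the NPC ratio was above the ESC mean in the first 3 kb of the gene, at -0.026, 0.22 and -0.19 against -0.54, -0.72 and -0.69, and the kb before the start read -0.37 and -0.41. Around Nom1 the order was turned. The NPC ratio was 2.04 from 7 to 6 kb before the start, where the ESC mean was 0.69 and where the second printed stretch lies, 1.37 against 0.40 from 3 to 2 kb before it, and 0.022 against -0.0085 in the first kb of the gene. The NPC difference at Lmbr1 and Rnf32 was thus greatest inside the gene, and at Nom1 upstream of it.

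**Figure D3:**
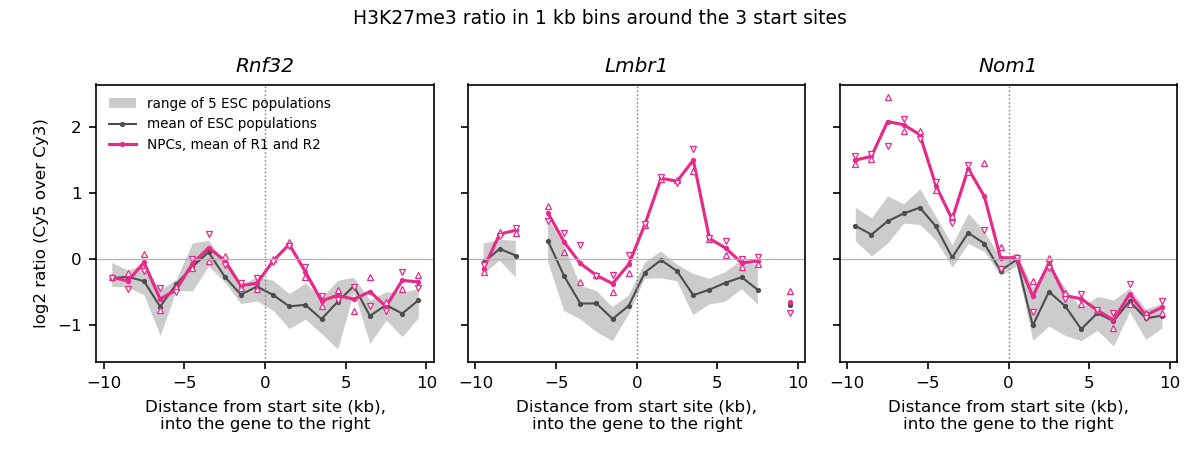
Log2 ratio (y axis) in 1 kb bins against distance from the start site in kb (x axis, into the gene to the right), with the NPC mean as a line, its arrays R1 and R2 as upward and downward triangles, the mean of the 5 ESC populations as a dark line and their range as a grey band. NPCs rise to 1.50 inside Lmbr1, to 0.22 inside Rnf32 and, before the Nom1 start, to 2.08 in a bin with 2 probes and 2.04 in the next; bins with no probes are left blank.

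Within the genes, exons and introns read alike in sign. In Lmbr1 the 63 exon probes had an ESC mean of -0.82 and an NPC value of -0.73, and the 1044 intron probes -0.74 and -0.54. In Rnf32 the exon values were -0.66 and -0.63 and the intron values -0.53 and -0.46. In Nom1 exons stood above introns, at -0.48 and -0.43 against -0.82 and -0.61. SBE5, an enhancer of Shh that lies within Lmbr1, was read over 10 kb to each side of an estimated position. That position was set by the rounded distance from Shh that the paper gives, so the values may not be centred on the enhancer itself. The eGFP value was -0.68, that of tShh-Vp64 -0.54, of tSBE6-Vp64 -0.78, of tSBE2-Vp64 -0.70 and of tSBE(6+2)-Vp64 -0.83, and NPCs had -0.54. The NPC value was level with the highest ESC population, and the rest of the Lmbr1 body read much the same, with -0.78 in the ESC mean and -0.64 in NPCs.

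The 4 TALE-Vp64 populations did not differ from eGFP ESCs at any tile of the region (limma, 0 of 53 higher and 0 lower; over the array 0% of 963 tiles). At an unadjusted p under 0.05 there was 1 tile in the region and 1.14% over the array. That tile, chr5:29585001-29590000 in Lmbr1, read -0.42 in eGFP and -0.83 to -0.60 in the 4 populations, with an adjusted p of 0.997. Over the 53 tiles the median difference from eGFP was 0.080 for tShh-Vp64, -0.096 for tSBE6-Vp64, -0.052 for tSBE2-Vp64 and -0.13 for tSBE(6+2)-Vp64 ESCs. The tShh-Vp64 population was above eGFP in 39 tiles, tSBE2-Vp64 in 19, tSBE6-Vp64 in 12 and tSBE(6+2)-Vp64 in 11. At the promoter windows the mean difference was -0.10 (SE 0.17) for Rnf32, -0.024 (SE 0.17) for Lmbr1 and 0.017 (SE 0.17) for Nom1, with adjusted p of 0.893, 0.984 and 0.984 (0% of 76 windows called). With 1 eGFP sample a difference of the size of these errors could not be told from none. The 4 populations have different targets and were taken as 1 group, so a change in 1 of them alone counts as spread.

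**Figure D4:**
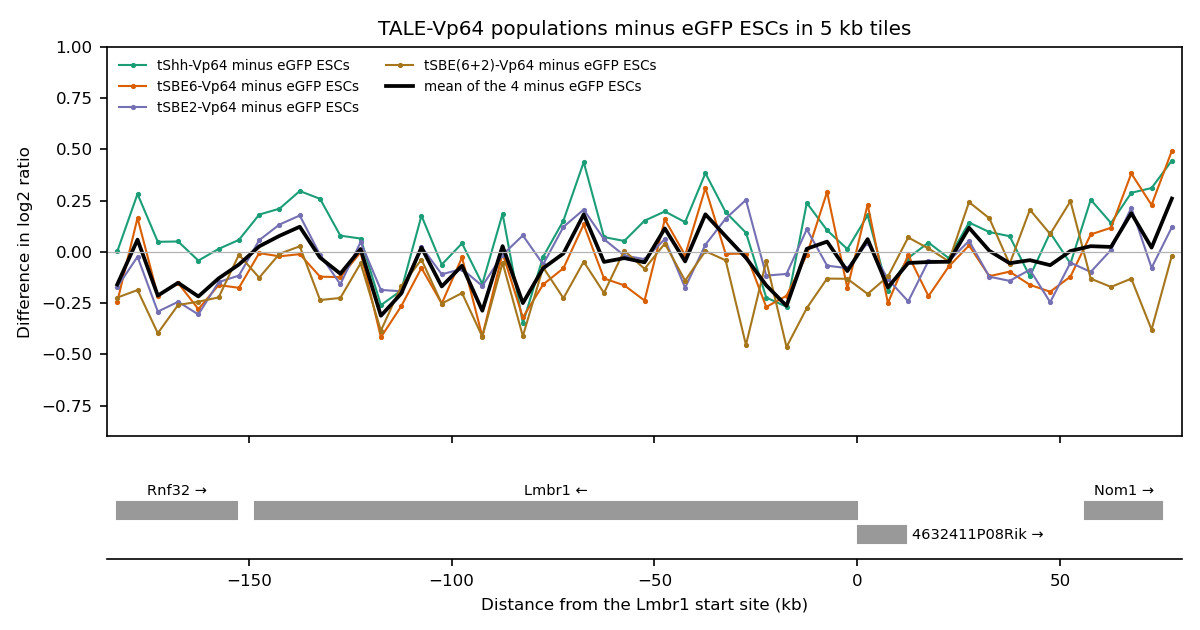
Difference in log2 ratio from eGFP ESCs (y axis) for each of the 4 TALE-Vp64 populations and for their mean (thick line) in 5 kb tiles against distance from the Lmbr1 start site in kb. Single populations range from -0.46 to 0.49 and the mean from -0.31 to 0.26, with no tile past the threshold.

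Among the 76 promoter windows those of Rnf32, Lmbr1 and Nom1 ranked 65, 60 and 57 by ESC mean and 62, 48 and 53 by NPC value, with 1 as the highest; with the sign turned the ranks were 12, 17 and 20 and 15, 29 and 24. By the root mean square difference over the 6 conditions, among 73 other genes, the windows most like that of Rnf32 were those of Gfap (0.12), Rbm33 (0.17) and Actb (0.18). Nearest to Nom1 were Gfap (0.11), Sco2 (0.14) and Lnp (0.15). Lmbr1 had no such close match: Myc differed by 0.22, Gfap by 0.26 and Sco2 by 0.27. For scale, the window of Shh read 1.12 in the ESC mean and 2.20 in NPCs, that of Mnx1 1.59 and 2.92, and that of Gapdh -0.69 and -0.72.

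Base composition followed the levels only loosely. Over the 53 tiles, which share the same arrays and lie side by side, Pearson's r of GC content was 0.14 with the ESC mean and 0.15 with the NPC difference, and that of CG dinucleotides per kb was -0.013 and 0.27. Tiles between Lmbr1 and Nom1 had a mean GC content of 42.4% and 6.96 CG per kb, and tiles of Lmbr1 40.6% and 6.61.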

How the data were processed

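H3K27me3 native ChIP-chip of 46c ESCs and NPCs was measured on 12 arrays. Spot intensity values of both dyes were extracted by the authors with Agilent Feature Extraction 11.5.1.1, who further deposited normalized log2 ratios in 1 table with a column per condition, whose normalization is not given in the sources used here (the labels name limma). The study's methods describe other arrays. Control and outlier spots were dropped, processed signals were turned to log2 ratios with the median of each array set to 0 and no loess, and these were averaged per unit with at least 5 probes on every array. Genes and sequence are of mm9. R1 and R2 were averaged, and NPCs were compared with 5 ESC populations, and 4 TALE-Vp64 populations with eGFP ESCs, in limma 3.58.1 (R 4.3.3) with Benjamini-Hochberg adjustment. On simulated data for NPCs, 87% of tiles shifted by 1 and 39% shifted by 0.5 were recovered, and 86.7% and 26.7% of promoter windows. Named were the 3 genes, the stretches between them, SBE5, up to 5 called tiles in each direction with the greatest difference, the tiles beside the region and the 3 promoters nearest to each gene; other tiles were added where a profile is described. Genes, lists and rules were chosen with earlier results of these data known. Alternatives were other normalizations, filters, windows and sample sets; normexp was run on median signals, and centring of the deposited ratios was added after seeing the data. The number of arrays limits the precision.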

Additional observations from a re-analysis of the deposited data

How the results depend on the processing

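The Lmbr1 promoter window, its promoter minus body, and the tile at its start passed in all alternatives with a test. The tile lies within the window and promoter minus body uses that window too, so they are not separate results. The 3 named tiles between Lmbr1 and Nom1 also passed where they could be fitted. The count of 14 higher tiles fell to 7 with the deposited ratios, which also called 3 lower, to 4 with bright probes and to 5 with 10 kb tiles, which are fewer; leaving out 1 population or array gave 10 to 14.

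For the Rnf32 window the difference passed with loess (0.32), with slide as a term (0.46), with the deposited ratios centred (0.22), and with arrays as samples, both without and with the array number as a replicate block (0.29, adjusted p = 0.0143 and 0.0196); within slide 2 it was 0.46. For the Nom1 window it did not pass with the deposited ratios (0.13), bright probes (0.19), the median over probes (0.24) or a 2.5 kb window (0.29). For the Lmbr1 window the value within slide 2 was 1.05. Promoter minus body of Rnf32 did not pass with loess (0.27), slide as a term (0.40) or NPC values divided by their slope (0.27). That of Nom1 passed with arrays as samples, without and with the replicate block (0.30, adjusted p = 0.0141 and 0.0197), and with a 10 kb window (0.37), and was 0.11 within slide 2. Arrays with the same number deviated together in some pairs of conditions but not in most (correlations of R1 minus R2 of -0.25 to 0.43, 4 of 15 over 0.1). Arrays as samples take R1 and R2 as independent, which the labels do not state. The block called 18 tiles and arrays without it 19.

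The Rnf32 body turned to 0.042 with loess, 0.068 with slide as a term and 0.067 with divided NPC values, and passed at -0.19 with the deposited ratios. The Lmbr1 body turned to -0.032 with the deposited ratios and -0.047 with bright probes, and was 0.27 within slide 2. The Nom1 body turned to -0.064 and -0.089 in the same alternatives, and with slide as a term it passed at 0.37, the value within slide 2. TALE-Vp64 minus eGFP at the Lmbr1 window turned to 0.0065 with the deposited ratios and 0.024 with slide as a term, and at the Nom1 window to -0.070 with bright probes and -0.085 with the median; none passed.

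Leaving out 1 array set or 1 population gave 0.25 to 0.34 for the Rnf32 window, 0.83 to 0.97 for Lmbr1 and 0.31 to 0.49 for Nom1, and -0.068 to -0.0036 for the Rnf32 body, 0.11 to 0.17 for Lmbr1 and 0.029 to 0.16 for Nom1. Promoter minus body gave 0.29 to 0.38, 0.68 to 0.84 and 0.15 to 0.46, and TALE-Vp64 minus eGFP -0.17 to -0.052, -0.095 to 0.047 and -0.027 to 0.046. The cause of these changes was not tested. Signal limits the region most on the slide 2 arrays. There the lowest share of its probes well above background was 51.7% in Cy3, on a tSBE(6+2)-Vp64 array. In Cy5 it was 63.49%, on an NPC array.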
